A study of Mus musculus with 77 samples.

Results

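H3K4me1 was compared between Cebpa KO and wild type preGM, the pre-granulocyte-macrophage progenitors of mouse bone marrow. Every enhancer of the deposited table was used, 44002 of 44002 regions, and no measured value chose among them here. The table itself is the authors' set of enhancers. The comparison rests on 4 ChIP-seq libraries among 77 listed samples: 2 of preGM with the genotype CEBPA KO and 2 of wildtype preGM, made with the same Abcam antibody. Both groups were sorted from fresh bone marrow as lineage-negative, Sca-1-negative, ckit-positive cells without CD150 and CD105. The promoter or Cre line behind the deletion, the strain, the sex and age of the mice and any pooling of mice are not given in the sources used here. Wild type LSK (stem and multipotent progenitor cells, Sca-1-positive, with ckit among the sort markers), GMP (granulocyte-macrophage progenitors, positive for the Fc gamma receptors II and III) and granulocytes (Mac1-positive, Gr-1-positive) were used for context.

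H3K4me1, monomethylation of lysine 4 of histone H3, marks enhancers and often appears before they are active, while acetylation of lysine 27 (H3K27ac) marks those in use. CEBPA is the basic leucine zipper factor that progenitors need to enter the granulocyte-macrophage path at the step between preGM and GMP, and at many myeloid enhancers it binds beside PU.1, the ETS factor of myeloid and lymphoid cells. Without CEBPA the mouse makes very few GMP and granulocytes.

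The table gives 1 value per enhancer and group, with the 2 libraries of a group not separated. No comparison here has a replicate error or a p-value, and "higher" and "lower" compare 2 deposited values. Read depth is unknown, and in sorted bulk cells fewer cells with a mark and less mark per cell cannot be told apart. Coordinates are those of the table in build mm9, and each enhancer's gene is the one the authors assigned. Each deposited stage class of the enhancers names GMP or granulocytes, and none names KO cells. Enhancers present only in KO preGM may therefore be missing, and what this does to the counts of lower and higher enhancers was not tested. The measure is the log2 ratio of (KO signal + 2) to (WT signal + 2), less its median over all enhancers, so 0 is the typical enhancer. Before this centring the median was 0.10, that is, slightly higher in KO.

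The Cebpa locus held the 2 lowest H3K4me1 ratios of the table. Its 16 enhancers span chr7:35903351-35937184, and 3 of them were at least 2-fold lower in KO preGM, against 1 of the other 43986 enhancers. At chr7:35906741-35906988 the H3K4me1 signal was 0.00686 in KO and 3.14 in WT. H3K27ac there was 0.0320 in KO and 0.812 in WT, and PU.1 was 0 in KO and 0.406 in WT. The WT values of H3K27ac and PU.1 there were low as well, beside 25th percentiles of 0.65 over the H3K27ac and 0.635 over the PU.1 columns. The check of the genotype label at this enhancer thus rests mainly on the H3K4me1 value. Just upstream, chr7:35905728-35905889 had 0.300 in KO and 4.41 in WT, the lowest log2 ratio of all 44002 (-1.58), and chr7:35904704-35904792 had 0.857 in KO and 3.99 in WT. The 3 enhancers lie within 2.28 kb.

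The marks did not move together around that gap. H3K27ac at chr7:35904704-35904792 was 14.9 in KO and 7.48 in WT, and at chr7:35905728-35905889 it was 7.997 in KO and 4.09 in WT, both higher in KO where H3K4me1 was lower. On the other side, chr7:35909054-35909130 had H3K4me1 of 7.15 in KO and 3.66 in WT, with H3K27ac of 1.43 in KO and 3.98 in WT. Of the 16 enhancers, 9 lay below and 7 above the median of all. The expression value of Cebpa was 48.3 in KO and 208 in WT. These 16 enhancers stay out of every count that follows. The promoter of Cebpa (RefSeq, GRCm38.p6, chr7:35119043-35119342, plus strand) is shown because it belongs to the deleted gene, 5′ to 3′, from 250 bases before to 50 after the start; it holds neither of the motifs named further on, and its build is not that of the enhancers.

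Cebpa promoter: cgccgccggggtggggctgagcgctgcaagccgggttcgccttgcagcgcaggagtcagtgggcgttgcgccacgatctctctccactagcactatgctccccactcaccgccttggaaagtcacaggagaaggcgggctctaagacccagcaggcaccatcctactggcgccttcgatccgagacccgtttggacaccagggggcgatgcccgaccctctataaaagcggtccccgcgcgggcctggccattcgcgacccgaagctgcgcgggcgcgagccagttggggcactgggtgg

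**Figure D1:**
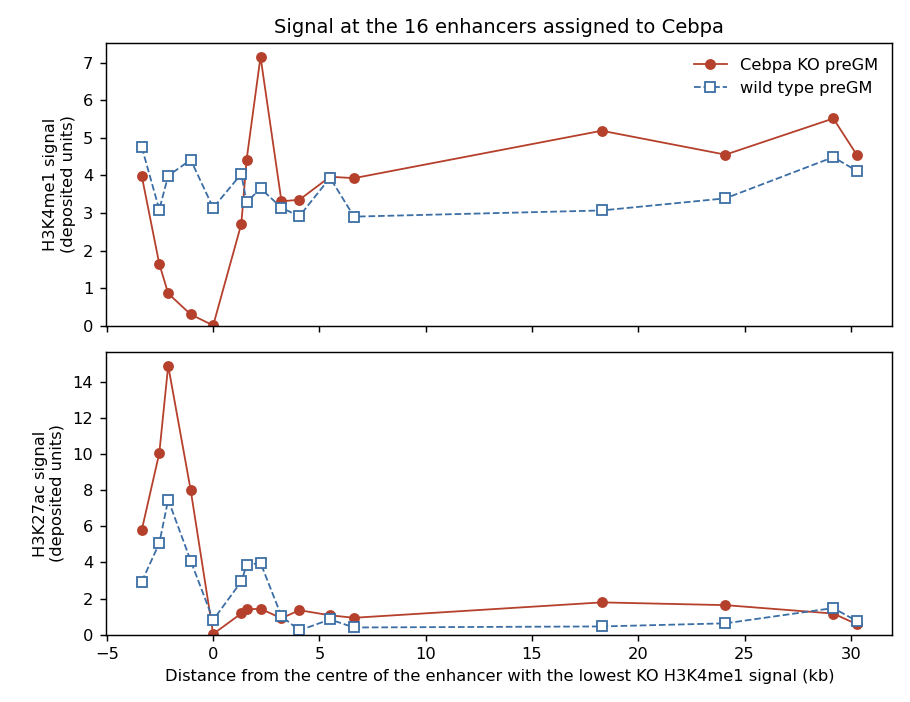
H3K4me1 (top) and H3K27ac (bottom) signal in deposited units at the 16 Cebpa enhancers, by distance in kb from the one with the lowest KO H3K4me1 signal; filled circles are KO and open squares WT preGM, 1 pooled value each. KO H3K4me1 drops to 0.00686 at distance 0, while KO H3K27ac reaches 14.9 on the left, against 7.48 in WT.

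Outside the locus the shifts were small. The centred log2 ratio had a standard deviation of 0.18 over enhancers, with the 25th and 75th percentiles at -0.12 and 0.11 and the 1st and 99th at -0.48 and 0.36. The lower tail was the longer one: 152 of 43986 enhancers (0.346%) were at least 1.5-fold lower in KO preGM and 15 (0.0341%) at least 1.5-fold higher. With signal + 2 at least 20% lower or 25% higher, the same fold in both directions, 2151 (4.89%) were lower and 763 (1.73%) higher. This direction depends on the centring: without it 763 were lower and 3513 higher at that fold, and 58 lower and 49 higher at 1.5-fold.

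The ratio followed the level of the mark itself. The KO column was more spread than the WT column, with a standard deviation of 1.86 in KO and 1.44 in WT around a mean of 3.57 in KO and 3.14 in WT. Accordingly the median ratio was -0.17 in the lowest of 10 equal groups by mean signal and 0.11 in the highest. Weak enhancers therefore tended to lie below 0 and strong ones above it, and what makes the columns differ in spread was not tested. Many results are therefore also given after centring within 20 groups of equal mean signal, called trend-centred, and a value without that word is median-centred. Trend-centred, 75 enhancers were at least 1.5-fold lower and 9 higher, and 1178 were at least 20% lower and 474 at least 25% higher.

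**Figure D2:**
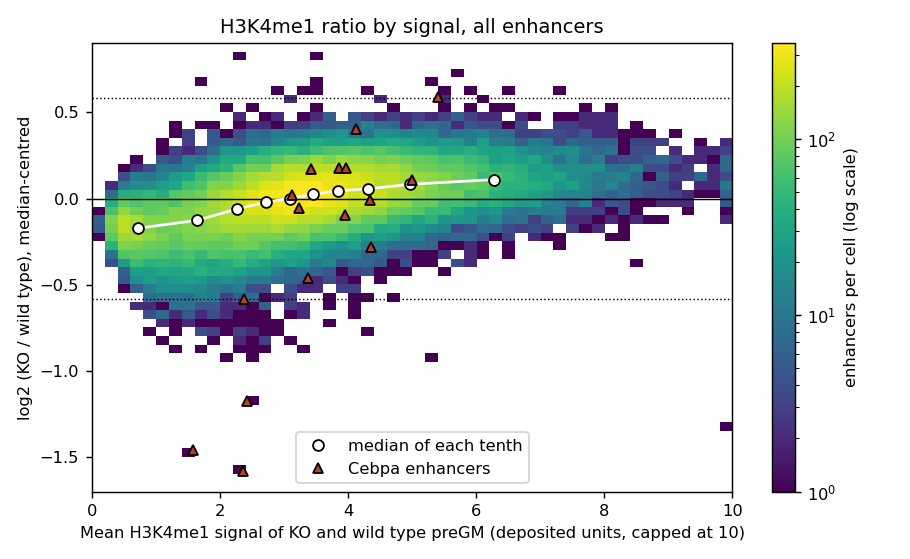
Centred log2 ratio of H3K4me1, KO over WT preGM, against the mean signal of both in deposited units; colour counts enhancers on a log scale, dotted lines mark 1.5-fold and triangles are Cebpa enhancers. The medians of 10 equal groups by signal (circles) run from -0.17 at low to 0.11 at high signal.

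Among enhancers whose larger value, KO or WT, reached the typical level, the lowest single ones were assigned to Zfp821, Arf6, Mapkapk2, Krt80, Gpr30 and Gpr133. Zfp821, a zinc finger gene, had 5.72 in KO and 16.01 in WT at chr8:112230510-112231226, and this was the 1 enhancer past 2-fold. The Arf6 enhancer at chr12:70462536-70462612 had 3.26 in KO and 7.41 in WT. At both, PU.1 ran the other way, with 39.6 in KO and 5.74 in WT at Zfp821 and 19.5 in KO and 3.89 in WT at Arf6. H3K27ac was high at both in both genotypes, with 73.3 in KO and 45.6 in WT at Zfp821 and 29.96 in KO and 22.2 in WT at Arf6. In H3K4me1, WT preGM stood above every other wild type stage at Zfp821 and Arf6. Zfp821 had 4.099 in LSK, 3.72 in GMP and 6.29 in granulocytes. Arf6 had 3.28 in LSK, 2.85 in GMP and 5.399 in granulocytes. The KO values of these enhancers lay within the range of those stages, and what sets WT preGM apart there was not tested. At the other 4 the largest H3K27ac or PU.1 value in preGM was 1.30.

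Mapkapk2, a kinase downstream of p38 that controls cytokine messenger RNA, showed the lower signal over a whole stretch. Its enhancer at chr1:132979188-132979358 had 1.29 in KO and 3.84 in WT, and 21 of its 25 enhancers lay below the median of all, also when trend-centred. Its expression value was 292 in KO and 470 in WT. The Krt80 enhancer, near a keratin gene, had 1.87 in KO and 4.67 in WT. That of Gpr30, an estrogen-binding receptor, had 1.26 in KO and 3.61 in WT. That of Gpr133, an adhesion receptor, had 1.47 in KO and 3.87 in WT and carried a CEBPA signal of 4.74 in WT preGM.

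The highest single enhancers were assigned to Cotl1, Ube2g2, Adam1a, Arap3, Akna and Polr2e. That of Cotl1, an actin-binding protein, had 5.12 in KO and 1.73 in WT, and that of Ube2g2, a ubiquitin-conjugating enzyme, had 3.57 in KO and 0.945 in WT. Both genes were mostly higher along their length, with 15 of 18 enhancers of Cotl1 and 10 of 11 of Ube2g2 above the median of all. The other 4 ranged in log2 ratio from 0.64 at Polr2e to 0.72 at Adam1a. Just outside these groups of 6 the ratios were -0.84 and 0.63.

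Since single ratios are small, genes were read over all their enhancers. Of 3605 genes with at least 4 enhancers, 255 (7.07%) had all of them below the median of all enhancers in KO preGM and 228 (6.32%) had all above it. Trend-centred, the counts were 175 (4.85%) and 181 (5.02%), with 102 and 109 genes shared with the first lists. The gene's own median kept its side under trend centring in 230 of the 255 and 221 of the 228. With no centring at all 52 genes had every enhancer lower in KO and 835 every enhancer higher. Enhancers of a gene are not independent: 48 of the 255 and 75 of the 228 had all theirs in 1 run with gaps under 2 kb.

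Fndc3b, which encodes a fibronectin type III domain protein, had the most enhancers of any gene on the lower side. All 21, spread over 229 kb at chr3:27461732-27690971 in 9 runs, were lower in KO than in WT preGM before and after either centring. The H3K4me1 signal ran from 0.340 over a median of 1.16 to 4.68 in KO, and from 0.652 over 2.16 to 5.39 in WT. Per enhancer the log2 ratio lay between -0.81 and -0.15 (median -0.45, trend-centred -0.35). Of the 21, 13 were in a deposited class that names CEBPA. Across wild type stages the median signal of these enhancers was 1.80 in LSK, 2.16 in preGM, 3.83 in GMP and 5.12 in granulocytes. Fndc3b was also lower in H3K27ac (median log2 ratio -0.32) and in PU.1 (-0.25), and its expression value was 55.2 in KO and 99.4 in WT.

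The other 9 of the 10 lowest genes had 4 to 15 enhancers each. Mrpl33, a protein of the mitochondrial ribosome, had 15 enhancers with a median H3K4me1 signal of 1.10 in KO and 1.71 in WT, and 14 stayed below when trend-centred. Ing3, a subunit of the NuA4 acetyltransferase complex that reads H3K4 methylation, had 0.534, 0.536, 0.482 and 0.319 in KO and 1.27, 1.09, 1.26 and 0.994 in WT at its 4 enhancers, 3 of them in a CEBPA class. Ing3 was chosen by these same values, its KO signals were weak and its enhancers are not replicates, so this is a description only. Adipor1, the adiponectin receptor, had a median of 1.62 in KO and 2.45 in WT over 5 enhancers. Ap3s1, a subunit of the AP-3 adaptor that sorts cargo to lysosome-related granules, had a median of 1.00 in KO and 1.62 in WT over 6, and its expression value was 846 in KO and 1418 in WT.

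The remaining 5 were 1700010M22Rik (median log2 ratio -0.53), Clvs1 (-0.49), Taf15 (-0.42), Hunk (-0.41) and Krtdap (-0.40); the next gene outside, Rtkn, was at -0.38. In all 10 lowest genes the H3K4me1 ratio of GMP over LSK, centred on its own median over enhancers, was above 0, as in 55.8% of all genes with at least 4 enhancers, and in 6 of the 10 the median KO signal lay at or below 1.10. Trend-centred, Fndc3b, 1700010M22Rik, Ing3, Taf15 and Adipor1 kept every enhancer below, and each of the other 5 lost 1.

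**Figure D3:**
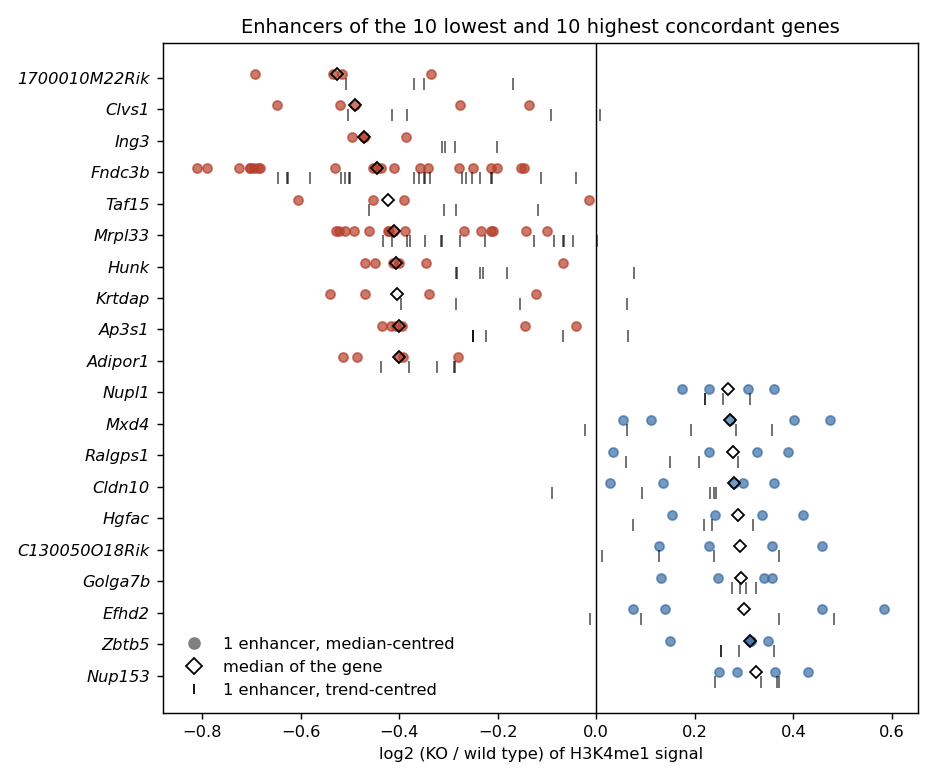
Log2 ratio of H3K4me1, KO over WT preGM, for each enhancer (dots) of the 10 lowest and 10 highest concordant genes, with the gene's median (diamonds) and the trend-centred values (ticks). The 21 dots of Fndc3b lie between -0.81 and -0.15, and the genes on the right reach at most 0.58.

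On the higher side the median-centred ratios were smaller, which depends on the centring, since the median of all enhancers before it was 0.10. Trend-centred, the enhancers of Nup153 lay between 0.24 and 0.37 and those of Zbtb5 between 0.25 and 0.36. Efhd2, Cldn10 and Mxd4 each had an enhancer below 0 when trend-centred. The 10 highest genes were Nup153 (median log2 ratio 0.32), Zbtb5 (0.31), Efhd2 (0.30), Golga7b (0.29), C130050O18Rik (0.29), Hgfac (0.29), Cldn10 (0.28), Ralgps1 (0.28), Mxd4 (0.27) and Nupl1 (0.27), and the next, Chit1, was at 0.27. Nup153, a nuclear pore protein, had 3.77, 5.55, 3.85 and 2.97 in KO and 2.51, 3.22, 2.24 and 1.79 in WT. Zbtb5, a zinc finger repressor, had 3.04, 2.31, 5.36 and 5.34 in KO and 1.78, 1.62, 3.38 and 3.50 in WT. At each of these enhancers the KO value was the higher, although the ranges of KO and WT overlap. Nupl1 is a second nuclear pore gene, Efhd2 a calcium-binding protein of immune cells and Mxd4 a MAX partner that opposes MYC.

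Gramd4, a mitochondrial protein linked to apoptosis, had the most enhancers on the higher side. Its 15 enhancers within 21.6 kb of chromosome 15 had a median signal of 6.11 in KO and 4.35 in WT (median log2 ratio 0.20, trend-centred 0.11 with 14 of 15 above). Over wild type stages the median was 4.76 in LSK, 4.35 in preGM, 5.04 in GMP and 3.48 in granulocytes. None of the 15 was in a CEBPA class. Its expression value was 154 in KO and 128 in WT.

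The 2 sides differed in columns that the ratio did not use. The median of gene-level log2 ratios of H3K4me1 in GMP over LSK was 0.19 for the 255 lower genes and -0.09 for the 228 higher genes, against 0.02 for all 3605. It was above 0 in 191 (74.9%) of the lower genes, in 68 (29.8%) of the higher genes and in 55.8% of all. Enhancers in a CEBPA class made up 29.5% of those of the lower genes, 16.2% of those of the higher genes and 22.3% of all. The lower genes were also the weaker ones, with a median H3K4me1 signal of 1.92 in KO and 2.27 in WT, against 4.76 in KO and 3.67 in WT for the higher genes. The ratio of GMP over LSK itself fell with signal. Its median was 0.40 in the lowest of 10 equal groups by mean preGM signal and -0.16 in the highest. These contrasts are for the median-centred lists only, and the part of signal level in them was not tested.

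Enhancers with more H3K4me1 in GMP than in LSK tended to have the lower ratio. Of 5 equal groups by the ratio of GMP over LSK, in the highest the median KO over WT ratio was -0.13 and 15.5% were at least 20% lower, against 0.05 and 2.24% in the lowest. Trend-centred, the medians were -0.04 and 0.01. Of the 152 enhancers at least 1.5-fold lower, 120 were in that highest group. Over 43986 enhancers Pearson's r between the ratio and that of GMP over LSK was -0.36, and -0.13 when trend-centred, a description only, since neighbouring enhancers share reads. The GMP and LSK columns are not part of the KO over WT ratio.

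The 152 enhancers had median H3K4me1 signals of 2.02 in LSK, 2.61 in WT preGM, 4.93 in GMP and 6.60 in granulocytes, and 1.06 in KO preGM. The KO value thus lay below that of LSK, while the WT value lay between LSK and GMP. They were chosen for a low ratio of KO over WT, which favours low KO and high WT values, so the place of both beside LSK is a description only. Over all enhancers the medians were 3.26 in LSK, 3.07 in WT preGM, 3.79 in GMP and 3.48 in KO preGM. By deposited stage class, 54 were marked for GMP alone and 31 for GMP and granulocytes, 35.5% and 20.4% against 17.2% and 7.06% of all enhancers. None of the 152 was in the class of all 4 stages, which holds 3.99% of all.

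The ratio also differed between the deposited classes of bound factors, and it was lowest for CEBPA alone. Enhancers with CEBPA alone had a median ratio of -0.06 (trend-centred -0.02), and 11.6% of these 5390 were at least 20% lower in KO. For PU.1 and CEBPA together the median was 0.03 (0.01) with 6.56% lower, for PU.1 alone 0.05 (0.02) with 1.79%, and for neither factor -0.01 (0.00) with 4.24%. CEBPA alone made up 59 of the 152 enhancers at least 1.5-fold lower, 38.8% against 12.3% of all. Taken over all enhancers, a class naming CEBPA was 0.02 below the rest on the log2 scale, but 0.02 above it among enhancers with at least the median mean signal.

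The CEBPA signal in WT preGM went mainly with the lower tail. Median ratios in its 5 equal groups lay between -0.003 and 0.006, and trend-centred they were 0.014 in the lowest and -0.014 in the highest. The share at least 20% lower was 3.15%, 3.94%, 4.17%, 4.40% and 8.79% from the lowest to the highest. The share at least 25% higher rose as well, from 1.18% in the lowest to 2.27% in the highest. In the top 1% by CEBPA signal 15.9% were at least 20% lower, against 4.89% of all enhancers. Trend-centred, these shares were 12.02% and 2.68%. At least 25% higher were 2.49% of that top 1%, and 0.68% when trend-centred, against 1.73% and 1.08% of all. PU.1 signal in WT preGM went with a higher ratio, from -0.08 in the lowest of 5 equal groups to 0.05 in the highest, but trend-centred from 0.00 to 0.02.

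Factor class and stage gain went together. Within the group of highest GMP over LSK, 22.3% of enhancers with CEBPA alone and 20.9% of those with both factors were at least 20% lower, against 8.03% with PU.1 alone and 12.5% with neither. Trend-centred, the shares were 8.78%, 9.43%, 3.46% and 5.39%. In the group of lowest GMP over LSK all 4 classes had a median ratio above 0, between 0.03 and 0.12, although trend-centred it was -0.01 for neither factor.

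**Figure D4:**
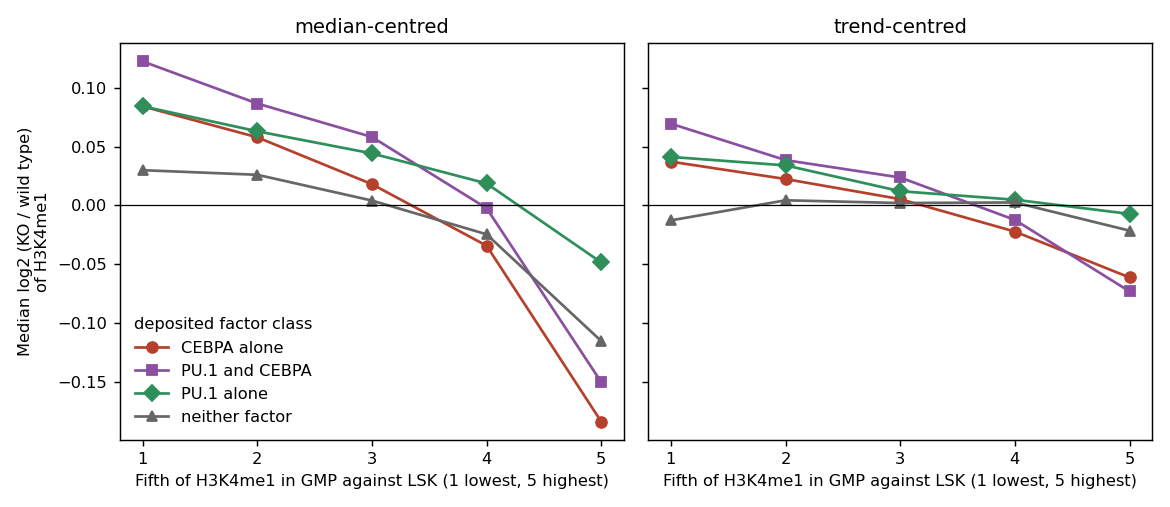
Median log2 ratio of H3K4me1, KO over WT preGM, in 5 equal groups of the H3K4me1 ratio of GMP over LSK, by deposited factor class, median-centred (left) and trend-centred (right). In the highest group CEBPA alone is at -0.18 on the left and -0.06 on the right, and PU.1 alone at -0.05 and -0.01.

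Gene lists of the myeloid path were read by the median over each gene's enhancers, for members with at least 2. Of all 6663 such genes 3107 (46.6%) lay below the median of all enhancers and 53.4% above, and 47.2% lay below when trend-centred. Secondary granule and mature neutrophil genes lay lowest: 17 of 18 were below, with a list median of -0.16. Trend-centring moved this to -0.01 with 11 of 18 below. Their enhancers were weak, with a median signal of 0.736 in KO and 0.797 in WT preGM. Read by each gene's strongest enhancer alone, the list median was -0.15, against 0.06 for all genes. Strongest here means the highest mean H3K4me1 signal over LSK, WT preGM, KO preGM, GMP and granulocytes. Such an enhancer can be strong in granulocytes and still weak in preGM, and this reading was median-centred only. Csf3r, the G-CSF receptor, had all 7 enhancers below (median log2 ratio -0.27, trend-centred -0.10), with a median signal of 0.641 in KO and 0.769 in WT.

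Cxcr2, the chemokine receptor that draws neutrophils, kept more of its difference. All 20 of its enhancers over 35.3 kb of chromosome 1 were below the median of all, and 18 when trend-centred (median -0.21 and -0.12). The median signal was 1.47 in KO and 2.30 in WT, and the largest gap was at chr1:74196459-74196513, with 1.12 in KO and 2.64 in WT. The expression value of Cxcr2 was 87.7 in KO and 570 in WT. Mmp8, neutrophil collagenase, and Lcn2, the granule protein lipocalin 2, were at -0.21 and -0.19, and at -0.05 and -0.02 when trend-centred.

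Primary granule genes split. Of 15 members 10 were below (list median -0.09, but 0.00 with 7 below when trend-centred and 0.05 by the strongest enhancer). Elane, neutrophil elastase, had 6.74, 5.37, 1.61 and 1.79 in KO and 5.85, 5.51, 2.19 and 3.53 in WT at its 4 enhancers, so the strongest was the higher in KO and the 3 others were lower. Its expression value was 53.1 in KO and 213 in WT. Prtn3, proteinase 3, lay at 0.19 (trend-centred 0.10), although its expression value was 99.2 in KO and 366 in WT. Mpo, myeloperoxidase, lay at 0.13 (trend-centred 0.04) with 5 of 11 enhancers below. Lyz2, lysozyme, lay at -0.31 (trend-centred -0.12), with a median signal of 1.247 in KO and 1.86 in WT over 12 enhancers. Igsf6, a surface protein that the list holds although it is no granule protein, was at -0.26 (trend-centred -0.10) with all 4 enhancers below.

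Monocyte and macrophage genes were below in 17 of 23, with either centring (median -0.06, trend-centred -0.07), although the median was 0.03 when only each gene's strongest enhancer was read. Fn1, fibronectin, had 0.774 and 1.03 in KO and 1.40 and 2.81 in WT at its 2 enhancers. Tgfbi, a matrix protein of macrophages, had 10 of 11 below (median -0.22, trend-centred -0.23 with all 11 below). Ccl6, a chemokine, and Lgals3, galectin 3, had all 5 and all 8 below. Klf4, a factor of monocyte differentiation, lay at 0.12 (trend-centred 0.02).

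Among myeloid transcription factors 19 of 36 were below (list median -0.01, trend-centred 0.01). Irf8, which directs monocyte and dendritic cell fates, had 15 of 24 below (median -0.14, trend-centred -0.11), with a median signal of 2.88 in KO and 3.21 in WT. Its lower enhancers sat in groups: the 4 between chr8:123312481-123314901 had 0.922, 0.976, 0.981 and 1.08 in KO and 1.72, 1.93, 1.91 and 1.72 in WT. These are 4 of its 24 enhancers, near neighbours that can share reads, so they are not independent measurements. The expression value of Irf8 was 84.8 in KO and 299 in WT. Cebpb, a close relative of CEBPA, had all 4 enhancers above (median 0.11, trend-centred 0.02). Gfi1, a transcriptional repressor that acts within the granulocyte path, had 8 of 15 below. Junb (0.21, trend-centred 0.12) and Stat5a (0.19, trend-centred 0.09) were the highest of the list.

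Of the growth factor and cytokine receptors 14 of 27 were below, and 18 of 27 when trend-centred (list median -0.03, trend-centred -0.02). Csf2rb, the common beta chain of the receptors for GM-CSF and IL-3, had 16 of 17 enhancers below (median -0.27, trend-centred -0.18), with a median signal of 2.12 in KO and 2.42 in WT. Ifngr2, an interferon gamma receptor chain, was at -0.22 (trend-centred -0.20). Csf1r, the M-CSF receptor, had 5 of 11 below (0.02, trend-centred -0.06), while its expression value was 38.8 in KO and 140 in WT. Flt3, a receptor of early progenitors, had 11 of 17 below (-0.07, trend-centred -0.10), with an expression value of 118 in KO and 536 in WT. Kit, the stem cell factor receptor, had 5 of 11 below (0.03, trend-centred -0.02).

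Other lists lay on either side of the middle. Cell cycle and replication genes were below in 11 of 29 (median 0.05, trend-centred 0.03), with Cdkn2c (0.27) and Mcm7 (0.22) highest and E2f8 (-0.18) and Rrm2 (-0.18) lowest. Interferon response and antigen presentation genes were below in 6 of 17 (median 0.09, trend-centred 0.04), with Mx1 (0.23) and Psmb8 (0.21) highest and H2-Aa (-0.26) lowest. Stem and multipotent progenitor genes were below in 13 of 22 (median -0.01, trend-centred -0.04 with 18 below). Lmo2, a cofactor of blood stem cells, had 28 of 35 enhancers below under both centrings, with a median signal of 2.81 in KO and 3.46 in WT.

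Phagocyte oxidase and adhesion genes (13 of 24 below) and lipid and glucose metabolism genes (14 of 24) had list medians of 0.00 and -0.01. Hk3, the myeloid hexokinase, stood out in the second with 9 of 10 below (median -0.26, trend-centred -0.29), a median signal of 3.33 in KO and 4.09 in WT, and an expression value of 62.5 in KO and 282 in WT. Cd44, an adhesion receptor for hyaluronan, had the lowest median of the first (-0.19, trend-centred -0.10), with 16 of 19 enhancers below.

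**Figure D5:**
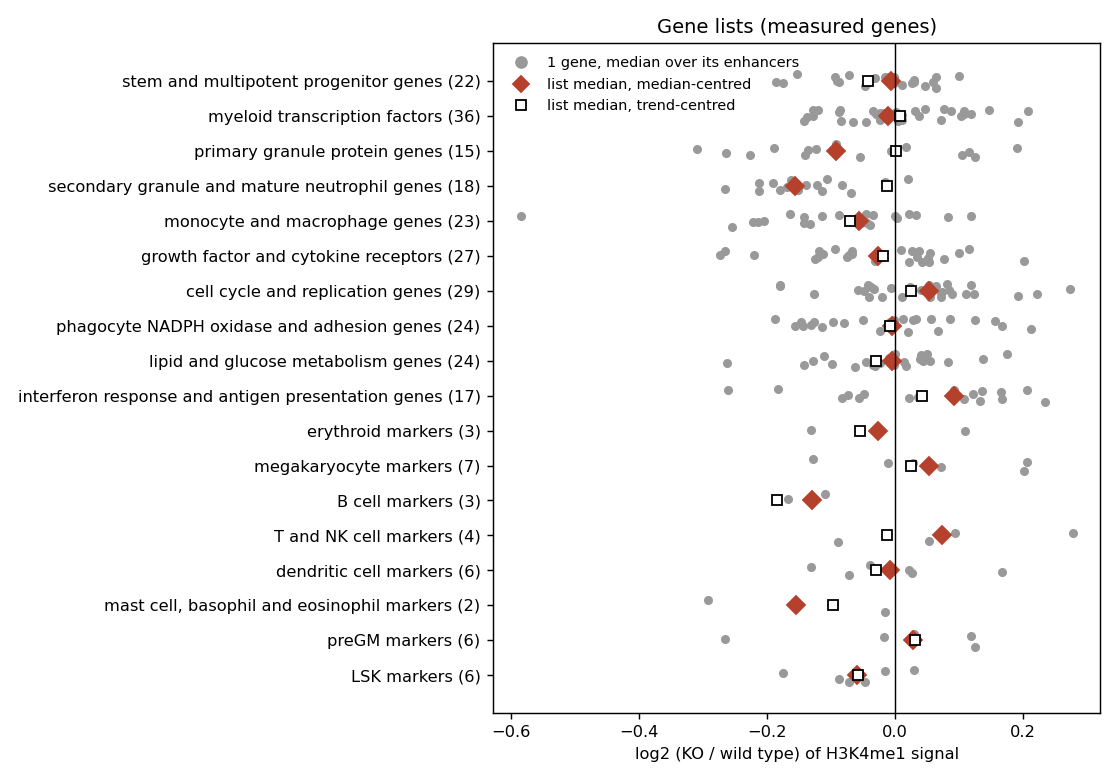
Gene medians of the H3K4me1 log2 ratio, KO over WT preGM (dots), for 18 lists, with the list median (diamonds) and its trend-centred value (squares); the number of genes is in brackets. Secondary granule genes move from -0.16 to -0.01 with the trend centring, and monocyte genes from -0.06 to -0.07.

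Markers of other cells were few in the table. Of the preGM markers 7 of 8 were in the table, Cebpa itself among them (expression value 48.3 in KO and 208 in WT). Their expression values summed to 10472 in KO and 12765 in WT. Mpo gave 4372 of this in KO and 6433 in WT, Cd48 2007 in KO and 1427 in WT, and Myb 1862 in KO and 1570 in WT. Kit gave 1219 in KO and 1317 in WT, and Cd34 873 in KO and 1659 in WT. The LSK markers, 7 of 8, summed to 1585 in KO and 2264 in WT. Summed expression values of the T and NK cell markers, 5 of 9 in the table, were 647 in KO and 345 in WT, led by Tcf7 (245 in KO and 74.1 in WT) and Lck (175 in KO and 91.6 in WT). The 4 of 8 B cell markers summed to 481 in KO and 344 in WT, the 3 of 9 erythroid markers to 729 in KO and 666 in WT, and the 9 of 9 megakaryocyte markers to 3189 in KO and 2694 in WT. The 6 of 8 dendritic cell markers summed to 425 in KO and 839 in WT, of which Flt3 gave 118 in KO and 536 in WT. No marker in the table was at 0 in either column. The H3K4me1 list median was 0.03 for 6 preGM markers without Cebpa (trend-centred 0.03) and -0.01 for 6 dendritic cell genes (-0.03). Others were 0.07 for 4 T and NK cell genes (-0.01), 0.05 for 7 megakaryocyte genes (0.03) and -0.03 for 3 erythroid genes (-0.05). They were as low as that of the monocyte list or lower for 3 B cell genes (-0.13, trend-centred -0.18), 2 mast cell, basophil and eosinophil genes (-0.15, trend-centred -0.10) and 6 LSK markers (-0.06 with 5 below, trend-centred -0.06 with 6 below). The part of such cells in the results was not tested.

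Other marks went weakly with the H3K4me1 ratio. Over enhancers Pearson's r was 0.10 with the H3K27ac ratio and -0.03 with the PU.1 ratio of KO over WT, against 0.08 and 0.05 when trend-centred, so the sign for PU.1 depends on the centring. These ratios come from other libraries, and no p is given, since enhancers share libraries and reads. Of the 152 enhancers at least 1.5-fold lower in H3K4me1, 112 (73.7%) were below the median of all in H3K27ac, and 81 (53.3%) in PU.1.

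Lower expression was most frequent among the genes with the lowest H3K4me1 ratio. The expression columns of the table carry the names of the KO and WT preGM groups, but their unit and making are not given in the sources used here and no value is below 6.45, so ratios of low genes are compressed. The table holds a further preGM expression column that names no genotype and was not used here. Among all 10095 genes 242 (2.4%) were at least 1.5-fold lower in KO and 182 (1.8%) higher, and among the 3605 with at least 4 enhancers 148 (4.11%) were lower and 97 (2.69%) higher. Of 5 equal groups of these genes by H3K4me1 median, in the lowest 9.29% were lower and 1.66% higher, while in the highest 2.08% were lower and 3.47% higher. Trend-centred, the shares of lower genes were 8.599% and 2.08%.

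Of the 255 genes with every enhancer below, 15 (5.88%) had an expression value at least 1.5-fold lower and 3 (1.18%) at least 1.5-fold higher. The lower ones were led by S100a9 (45.7 in KO and 498 in WT), Igsf6 (86.8 in KO and 626 in WT) and F13a1, a coagulation factor subunit of monocytes (38.7 in KO and 258 in WT). At S100a9, which encodes a subunit of calprotectin, H3K4me1 was barely present, with a median signal of 0.332 in KO and 0.237 in WT over 7 enhancers, and its median ratio of -0.08 became 0.08 when trend-centred. The 3 higher ones were Rora, Il18r1 and Dscam. Of the 228 genes with every enhancer above, 4 (1.75%) were lower in expression and 8 (3.51%) higher. Over all genes with at least 4 enhancers these shares were 4.11% and 2.69%. Among the 8 are Dpp4, a surface peptidase (1635 in KO and 598 in WT), and Hemgn, a hematopoietic nuclear protein (544 in KO and 314 in WT).

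The promoters of Fndc3b and Cxcr2 are shown because, of the lower genes that were also at least 1.5-fold lower in expression and below when trend-centred, these had the most enhancers. They are RefSeq sequences of GRCm38.p6, Fndc3b at chr3:27710403-27710702 on the minus strand and Cxcr2 at chr1:74153744-74154043 on the plus strand. Capitals mark GAGGAA, letters found in PU.1 sites, and TTGCNNAA, letters found in C/EBP sites, on either strand. Cxcr2 holds GAGGAA at 2 places on the opposite strand, and Fndc3b holds neither. Over 27025 promoters of that length, 28.3% hold GAGGAA and 10.8% TTGCNNAA. The H3K4me1 values belong to enhancers of the genes, not to these windows.

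Fndc3b promoter: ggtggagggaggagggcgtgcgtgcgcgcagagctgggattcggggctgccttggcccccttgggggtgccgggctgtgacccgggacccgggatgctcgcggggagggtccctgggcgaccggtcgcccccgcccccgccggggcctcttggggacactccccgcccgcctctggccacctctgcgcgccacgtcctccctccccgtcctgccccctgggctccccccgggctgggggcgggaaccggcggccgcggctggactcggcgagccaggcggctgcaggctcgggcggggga
Cxcr2 promoter: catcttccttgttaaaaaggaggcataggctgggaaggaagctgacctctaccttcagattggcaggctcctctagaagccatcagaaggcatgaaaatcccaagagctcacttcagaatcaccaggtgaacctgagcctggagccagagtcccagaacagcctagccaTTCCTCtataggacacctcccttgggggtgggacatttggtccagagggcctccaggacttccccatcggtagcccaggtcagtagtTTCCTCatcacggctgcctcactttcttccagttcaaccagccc

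Shifts were shared along the chromosome over short distances. For neighbouring enhancers less than 0.5 kb apart Pearson's r of the ratio was 0.72 over 10993 pairs, and it was 0.56 at 0.5 to 1 kb, 0.31 at 1 to 2 kb, 0.20 at 5 to 10 kb and 0.04 beyond 200 kb. Enhancers were a median of 194 bp wide, so near neighbours can hold reads of the same nucleosomes, and the count of enhancers of a gene is not a count of independent measurements.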

How the data were processed

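ChIP-seq of H3K4me1 in 2 Cebpa KO and 2 wild type preGM libraries was read from the deposited enhancer table, where the authors give 1 signal value per enhancer and group. Tools named in the submitters' processing notes are Bowtie2, bedtools and MACS2 for the ChIP libraries and STAR, featureCounts and DESeq2 for the RNA libraries, on build mm9. The sources used here do not say how libraries were pooled or scaled. Per the labels, up to 2 ng of E. coli DNA was added to the ChIP DNA before amplification, depending on its amount, and whether scaling used it is not known. The deposited signal was read as linear coverage, since values are never negative and columns differ in sum; depth is unknown, so no counting interval is given. Of 44 columns 17 value columns were used and 15 were not, 5 of them because they match no listed sample.

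The log2 ratio used a pseudocount of 2 (the 25th percentile over H3K4me1 columns is 2.44), 0.7 for H3K27ac and 0.6 for PU.1; ratios of expression values had none. All ratios were computed over the whole table with Python 3.11.15, numpy 2.4.6 and pandas 2.3.3. With 1 value per group no test was run. Named genes are Cebpa, the 10 lowest and 10 highest concordant genes, the 6 lowest and 6 highest single enhancers whose larger value of KO and WT reaches its median over enhancers (3.55), the gene with the most enhancers on each concordant side (Fndc3b and Gramd4), up to 4 lowest and 2 highest members of each list, and a fixed set of myeloid genes; a few genes under this rule are not reported here. S100a9, F13a1, Dpp4, Hemgn, Rora, Il18r1 and Dscam were named after their values were seen. The members, lists and rules were chosen with earlier results of these data known. Alternatives varied the pseudocount, centring, a signal filter, the fold, the number of enhancers and chromosome X. The scripts were checked on simulated data.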

Additional observations from a re-analysis of the deposited data

How the results depend on the processing

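Against 152 enhancers at least 1.5-fold lower and 15 higher in KO preGM, the counts were 1644 and 99 with a pseudocount of 0.5, 1 and 0 with a pseudocount of 8, 75 and 9 with trend centring, 16 and 4 among enhancers with at least the median signal, 58 and 49 with no centring, 1 and 0 at 2-fold, and 2151 and 763 at 20% lower or 25% higher. Lower enhancers outnumbered higher ones in each of these settings, but at 20% lower or 25% higher with no centring the counts were 763 and 3513, the other way round. Against 255 concordant lower and 228 concordant higher genes, the counts were 104 and 104 of 1786 genes with the signal filter (19 and 53 shared with the lists as reported), 52 and 835 with no centring, 95 and 62 for genes with at least 6 enhancers, 436 and 475 with at least 3, and 91 and 86 of 1473 genes with 1 enhancer per run (63 and 22 shared). The difference in median log2 ratio between the highest and lowest of 5 equal groups by CEBPA signal, -0.0018 as reported, was -0.0106 with a pseudocount of 0.5, -0.0287 with trend centring, -0.0319 within 3 equal groups by LSK and GMP signal and -0.0304 with trend centring on LSK and GMP signal, an alternative chosen after seeing the data; it was 0.00199 with a pseudocount of 8 and 0.00788 with the signal filter, on the other side of 0. The difference between enhancers in a class naming CEBPA and the others, -0.0224, was -0.0118 with a pseudocount of 8, -0.0102 with trend centring and 0.0156, on the other side of 0, with the signal filter. The signal filter by its construction tests only the stronger enhancers; the cause of the other shifts was not tested. List medians that changed sign under a setting include the stem cell genes (0.07 by the strongest enhancer, -0.01 as reported), the transcription factors (0.12) and the receptors (0.04), all by the strongest enhancer. Leaving out chromosome X changed no count by more than 1. No paired analysis was possible because the table pools the libraries of a group into 1 value, and for the same reason no library could be left out. Unknown depth limits what can be said of enhancers with a signal near 0.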
